A study of Mus musculus with 16 samples.

Results

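The genes of the YAP, TAZ and TEAD pathway were followed through 14 deposited ChIP-seq peak lists from mouse osteoblasts. The set held 10 genes. Yap1 and Wwtr1 encode the coactivators YAP and TAZ, Tead1, Tead2, Tead3 and Tead4 encode their DNA-binding partners, and Ctgf, Cyr61, Ankrd1 and Amotl2 are target genes in common use as readouts of the pathway. The genes were named for their roles in the pathway, but with earlier results of these data known. All 10 were found among the 22367 protein-coding genes of the GENCODE vM1 annotation of mm9. Every peak or region was given to the gene whose transcription start site (TSS) lay nearest to its centre, up to 100 kb away.

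Differentiated MC3T3-E1 cells were compared with undifferentiated MC3T3-E1 cells, a preosteoblast line from mouse calvaria. The differentiated cells had spent 15 days in osteogenic medium, which contained ascorbic acid at 50 µg/mL and glycerol-2-phosphate at 10 mM, and their matrix was removed before collection. The undifferentiated cells were from the same line, used between passages 5 and 12, and both states had received ethanol, the vehicle, for 3 h. In each state 7 antibodies were used, against the transcription factors RUNX2 and C/EBPβ and against the histone marks H4K5Ac, H3K9Ac, H3K4me1, H3K4me3 and H3K36me3. The replicates of each antibody and state had been merged into 1 deposited list, so the difference between the states has no replicate check. The results are therefore counts, positions and widths with no test, and a peak absent from a list was not called there, which is not a measurement of no binding. Both states are 1 cell line in culture.

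YAP and TAZ bind no DNA themselves. When the kinases of the Hippo pathway phosphorylate them they are held in the cytoplasm, and otherwise they enter the nucleus and activate transcription through TEAD proteins, which recognise the sequence GGAATG. In the osteoblast lineage the pathway is known for its response to cell shape and to the stiffness of the matrix, and TAZ is known to bind RUNX2, the factor required for osteoblast formation. C/EBPβ is a basic leucine zipper factor of mesenchymal cells. Acetylation of H4K5 and H3K9 marks active promoters and enhancers, H3K4me1 marks enhancers and the flanks of promoters, H3K4me3 marks promoters, and H3K36me3 is laid down along transcribed gene bodies.

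The lists held 6272 RUNX2 peaks in differentiated cells and 12674 in undifferentiated cells, and 10847 C/EBPβ peaks in differentiated cells and 15622 in undifferentiated cells. Every factor peak was 201 bp wide. The regions of H4K5Ac covered 265 Mb in differentiated and 340 Mb in undifferentiated cells, and those of H3K9Ac 86.5 Mb in differentiated and 52.6 Mb in undifferentiated cells. For H3K4me1 the cover was 344 Mb in differentiated and 342 Mb in undifferentiated cells, for H3K4me3 21.8 Mb in differentiated and 26.4 Mb in undifferentiated cells, and for H3K36me3 350 Mb in differentiated and 352 Mb in undifferentiated cells. Depth is not given by the lists, and its part in these differences was not tested. H3K4me3 stood at the promoters of 4 of 6 osteoblast marker genes in each state, among them Runx2, Col1a1 and Col1a2 in both. Spp1 had it in differentiated cells only, Sp7 in undifferentiated cells only and Alpl in neither state. H3K4me3 stood at none of the 24 marker promoters of adipocytes, skeletal muscle, blood cells and endothelium in either state, and at 1 of 6 chondrocyte promoters, that of Sox9, in both. H3K36me3 covered at least 50% of the body at 5 of the 6 osteoblast genes in each state, with 0% at Alpl. It did so at 1 chondrocyte gene in differentiated and 2 in undifferentiated cells. In both states it also covered 100% of Cd68, a blood cell marker, and Cldn5, an endothelial one.

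The sequences under the peaks that the results turn on are given first, on the plus strand of mm9, 5′ to 3′. Capitals mark each match, on either strand, to the TEAD motif GGAATG, the RUNX motif TGTGGT, the C/EBP motif TTGCNNAA or the AP-1 motif TGANTCA. The first pair are peaks at Ankrd1 that were listed in undifferentiated cells and not in differentiated cells. They lie at chr19:36194504-36194704, just upstream of the gene, with 1 TEAD and 2 RUNX matches, and at chr19:36203860-36204060, with 1 TEAD and 1 C/EBP match.
Ankrd1 promoter, RUNX2: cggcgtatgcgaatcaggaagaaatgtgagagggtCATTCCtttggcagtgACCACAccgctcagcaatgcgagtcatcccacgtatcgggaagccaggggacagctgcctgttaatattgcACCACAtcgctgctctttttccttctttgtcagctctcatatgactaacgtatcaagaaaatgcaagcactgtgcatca
Ankrd1 upstream, RUNX2: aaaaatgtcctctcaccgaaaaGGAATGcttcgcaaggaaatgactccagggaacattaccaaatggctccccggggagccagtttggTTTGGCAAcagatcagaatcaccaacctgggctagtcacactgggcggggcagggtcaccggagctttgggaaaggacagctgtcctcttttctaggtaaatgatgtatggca

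The next pair are Amotl2 peaks that were listed in both states. The intergenic peak at chr9:102654042-102654242, with 1 TEAD and 1 AP-1 match, lies at the only site of the 10 genes where both factors were listed in both states. The peak at chr9:102633617-102633817 lies near an internal TSS and holds 1 RUNX match.
Amotl2 downstream, RUNX2: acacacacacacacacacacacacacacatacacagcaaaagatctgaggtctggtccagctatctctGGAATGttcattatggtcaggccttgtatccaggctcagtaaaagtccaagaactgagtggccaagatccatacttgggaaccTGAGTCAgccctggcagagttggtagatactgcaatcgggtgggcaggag
Amotl2 internal, RUNX2: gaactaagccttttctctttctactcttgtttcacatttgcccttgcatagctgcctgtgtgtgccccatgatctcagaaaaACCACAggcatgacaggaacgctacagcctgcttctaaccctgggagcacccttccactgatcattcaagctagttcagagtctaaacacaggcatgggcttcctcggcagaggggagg

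The last set are C/EBPβ peaks at the coactivator genes and at Tead1. At Wwtr1, the promoter peak at chr3:57379253-57379453, with 1 C/EBP match, was listed in both states, and the peak at chr3:57380739-57380939, with 1 TEAD match, in differentiated cells only. The Yap1 peak at chr9:7961917-7962117, with 1 TEAD and 1 RUNX match, was listed in differentiated cells only. The Tead1 peak at chr7:119806934-119807134, with 1 TEAD and 1 C/EBP match, was listed in both states and was chosen for display after its values were seen.
Wwtr1 promoter, C/EBPβ: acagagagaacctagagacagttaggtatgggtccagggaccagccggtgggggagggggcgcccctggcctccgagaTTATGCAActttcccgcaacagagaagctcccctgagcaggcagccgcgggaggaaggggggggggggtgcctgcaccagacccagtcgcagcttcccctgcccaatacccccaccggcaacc
Wwtr1 upstream, C/EBPβ: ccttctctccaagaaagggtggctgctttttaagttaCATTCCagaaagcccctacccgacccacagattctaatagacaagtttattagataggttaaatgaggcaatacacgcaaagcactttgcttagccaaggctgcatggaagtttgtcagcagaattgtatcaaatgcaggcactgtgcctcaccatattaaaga
Yap1 intron, C/EBPβ: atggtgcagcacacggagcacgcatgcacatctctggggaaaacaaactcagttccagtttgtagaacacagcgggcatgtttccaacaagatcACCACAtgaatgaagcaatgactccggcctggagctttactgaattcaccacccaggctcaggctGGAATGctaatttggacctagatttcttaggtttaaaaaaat
Tead1 upstream, C/EBPβ: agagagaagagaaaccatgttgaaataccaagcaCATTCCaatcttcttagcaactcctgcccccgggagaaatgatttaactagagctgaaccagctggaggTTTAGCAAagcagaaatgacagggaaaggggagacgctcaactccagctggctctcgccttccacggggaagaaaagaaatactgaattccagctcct

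RUNX2 peaks around the 10 genes numbered 6 in differentiated cells and 24 in undifferentiated cells. They were carried by 3 genes in differentiated and 4 in undifferentiated cells, where 14.9% of all genes had a peak in differentiated and 27.2% in undifferentiated cells. The ratio of the counts was 0.25, against 0.495 for the whole RUNX2 lists. Each of the 4 genes with an undifferentiated peak, Tead1, Cyr61, Ankrd1 and Amotl2, had fewer in differentiated cells, and no gene had more. Over all genes 19.7% had fewer and 2.91% more, and among the 6080 genes with an undifferentiated peak 72.5% had fewer and 51.7% had none left, as Tead1 did. Among the 7802 genes with H3K4me3 at the promoter in undifferentiated cells 46.6% had an undifferentiated RUNX2 peak. All 6 differentiated peaks overlapped an undifferentiated peak by at least 1 bp. Of the 24 undifferentiated peaks 6 overlapped a differentiated peak and 18 did not, so 25.0% were kept (95% exact Clopper-Pearson interval 9.77 to 46.7%), against 36.4% of the whole list. That share lies within the interval, which covers counting error only, and neighbouring peaks share a locus.

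C/EBPβ peaks numbered 17 in differentiated cells and 42 in undifferentiated cells, on 6 genes in each state, where 21.7% of all genes had a peak in differentiated and 27.6% in undifferentiated cells. The ratio was 0.405, against 0.694 for the whole lists. There were fewer peaks in differentiated cells at 5 genes, namely Tead1, Ctgf, Cyr61, Ankrd1 and Amotl2, and more at Yap1 and Wwtr1. Over all genes 16.0% had fewer and 6.13% more. Among the 6179 genes with an undifferentiated C/EBPβ peak 58.0% had fewer, against 5 of 6 here. Of the 42 undifferentiated peaks 12 were kept and 30 were not, a kept share of 28.6% (15.7 to 44.6%) against 43.1% of the whole list, again within the interval. A further 5 differentiated peaks had no undifferentiated counterpart. Joined where they touched, the peaks of both factors made 58 sites, of which 36 were listed in undifferentiated cells only, 5 in differentiated cells only and 17 in both.

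**Figure D1:**
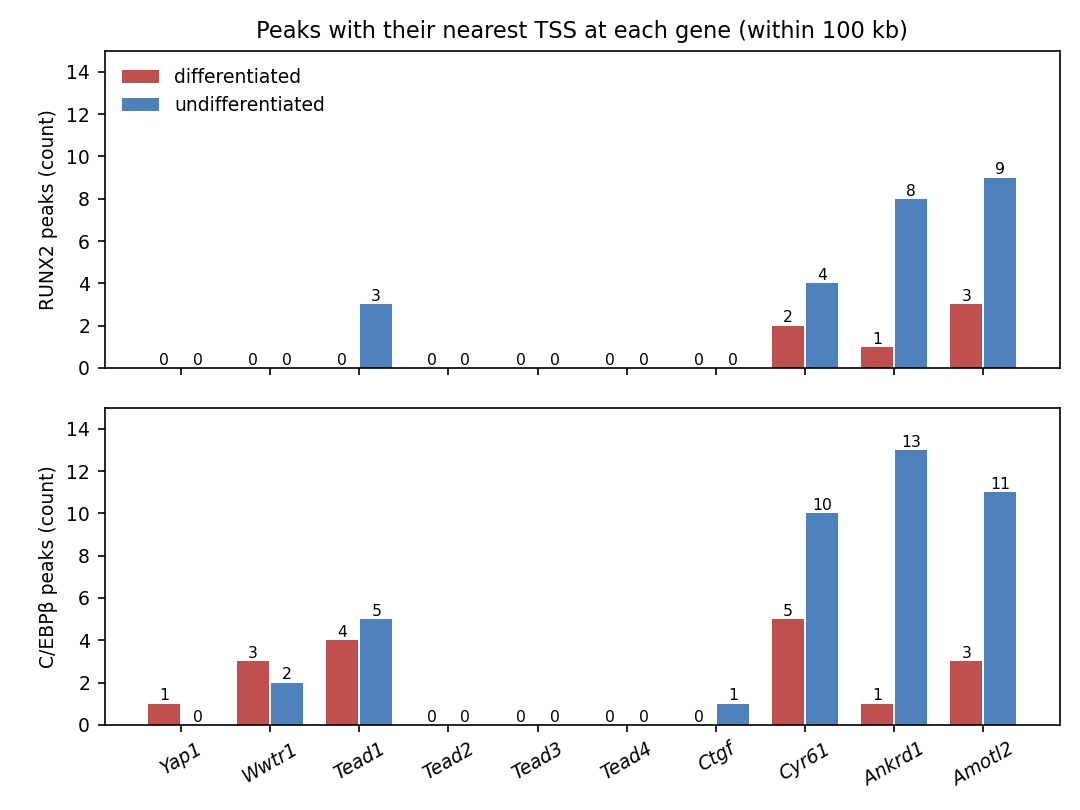
Number of RUNX2 (top) and C/EBPβ (bottom) peaks whose nearest TSS belongs to each of the 10 genes, in differentiated (red, left) and undifferentiated (blue, right) cells, 1 merged list per bar. RUNX2 counts are lower in differentiated cells at Tead1, Cyr61, Ankrd1 and Amotl2 and 0 in both states elsewhere, and C/EBPβ is higher in differentiated cells at Yap1 and Wwtr1 only.

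The coactivator genes carried no RUNX2 peak in either state. Yap1 had 1 C/EBPβ peak in differentiated cells and 0 in undifferentiated cells. It lay in an intron, 3.80 kb downstream of an internal TSS and 42.6 kb from the outermost one, in H4K5Ac and H3K4me1 regions of both states and in an H3K9Ac region of differentiated cells only. Wwtr1 had 3 C/EBPβ peaks in differentiated cells and 2 in undifferentiated cells. Its promoter peak and an intronic peak 65.3 kb downstream of the TSS were listed in both states, and the added peak lay 1.01 kb upstream. Counted over the gene body and 10 kb around it, whichever TSS was nearest, Wwtr1 had 5 C/EBPβ peaks in differentiated and 3 in undifferentiated cells.

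Among the TEAD genes only Tead1 received a factor peak. It had 0 RUNX2 peaks in differentiated cells and 3 in undifferentiated cells, 35.3 and 15.8 kb upstream of the outermost TSS and 23.2 kb into the gene. At least 3 undifferentiated RUNX2 peaks were held by 4.85% of all genes. A RUNX2 peak listed in both states farther upstream lay nearer to Parva and is not in the count. C/EBPβ gave Tead1 4 peaks in differentiated cells and 5 in undifferentiated cells. Of these, the upstream peak 15.8 kb from the TSS and an intronic peak were listed in both states, 2 intronic peaks in differentiated cells only and 3 intronic peaks in undifferentiated cells only. The count moved by 1 while 5 of the peaks changed. At the shared upstream site RUNX2 was listed in undifferentiated cells only and C/EBPβ in both states. Tead2, Tead3 and Tead4 had 0 peaks of either factor in both states. Around Tead3, whose neighbours are close, 1 differentiated and 2 undifferentiated RUNX2 peaks lay within 20 kb of its TSSs but nearer to another gene. So did 1 undifferentiated C/EBPβ peak. The gene body and 10 kb around it held 1 RUNX2 peak in each state and 1 undifferentiated C/EBPβ peak.

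Ankrd1, which encodes a nuclear ankyrin repeat cofactor, had 1 RUNX2 peak in differentiated cells and 8 in undifferentiated cells, and 1 C/EBPβ peak in differentiated and 13 in undifferentiated cells. In undifferentiated cells RUNX2 peaks lay 0.270, 9.63 and 10.0 kb upstream of its TSS, and 5 more lay in a distal stretch 75.3 to 94.9 kb upstream. Of the 8, the peak 75.3 kb upstream was the 1 listed in differentiated cells too. Of the 13 C/EBPβ peaks, 2 lay in the promoter, 2 in introns, 1 lay 10.6 kb downstream of the TSS, and the other 8 reached from 9.62 to 94.9 kb upstream. The C/EBPβ peak listed in both states lay 87.7 kb upstream. Within 50 kb of the TSS there were 0 RUNX2 peaks in differentiated and 3 in undifferentiated cells, and 0 C/EBPβ peaks in differentiated and 8 in undifferentiated cells. The gene with the nearest other TSS is Rpp30, 36.1 kb away on the downstream side, and the distal stretch was nearest to Ankrd1. Both factors were found together at 6 of its 15 sites. At least 8 undifferentiated RUNX2 peaks were held by 0.344% of all genes, and 3 of those 77 genes, or 3.90%, had at most 1 in differentiated cells. At least 13 undifferentiated C/EBPβ peaks were held by 0.0849% of genes. Of the 74 genes with at least 10, 3, or 4.05%, had at most 1 in differentiated cells. These cut-offs were taken with the counts of the 10 genes known, and Ankrd1 is itself among the 3 genes each time.

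Amotl2, which encodes a scaffold of cell junctions that binds YAP, had 3 RUNX2 peaks in differentiated cells and 9 in undifferentiated cells, and 3 C/EBPβ peaks in differentiated and 11 in undifferentiated cells. At least 9 undifferentiated RUNX2 peaks were held by 0.219% of all genes, and at least 11 undifferentiated C/EBPβ peaks by 0.219% too. The 3 RUNX2 peaks of differentiated cells were within 1 kb of TSSs at 2 places and 35.1 kb downstream of the outermost TSS, past the end of the gene. All 3 were also listed in undifferentiated cells. The other 6 undifferentiated RUNX2 peaks included 1 near a TSS, 1 in an intron, 1 over an exon and 3 past the end of the gene. No C/EBPβ peak of Amotl2 fell within 1 kb of a TSS in either state. The 3 listed in both states lay 31.4, 35.2 and 61.7 kb downstream of the outermost TSS, and the 8 listed in undifferentiated cells only lay between 1.67 kb upstream and 47.0 kb downstream of it.

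Cyr61, which encodes a secreted matricellular protein of the CCN family, had 2 RUNX2 peaks in differentiated cells and 4 in undifferentiated cells, and 5 C/EBPβ peaks in differentiated and 10 in undifferentiated cells. At least 4 undifferentiated RUNX2 peaks were held by 2.57% of all genes, and at least 10 undifferentiated C/EBPβ peaks by 0.331%. RUNX2 peaks 1.96 kb upstream and 35.3 kb downstream of its TSS were listed in both states, those within the promoter, 0.767 kb into the gene, and 35.2 kb upstream in undifferentiated cells only. C/EBPβ peaks over an exon and 31.3, 41.7 and 42.3 kb upstream were listed in both states, a peak 7.93 kb downstream in differentiated cells only, and 6 peaks in undifferentiated cells only. Most upstream peaks lay nearer to the TSS of a noncoding RNA gene, Gm17501, than to that of Cyr61. When noncoding genes could take peaks, Cyr61 kept 1 RUNX2 peak in differentiated and 2 in undifferentiated cells, and 2 C/EBPβ peaks in differentiated and 1 in undifferentiated cells, and the direction for C/EBPβ turned round. Ctgf, the other CCN gene, had no RUNX2 peak, and 0 C/EBPβ peaks in differentiated cells against 1 in undifferentiated cells, 14.1 kb upstream.

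Ankrd1 and Amotl2 were among 6 genes of the annotation, 0.0268% of all genes, that had at least 6 fewer RUNX2 peaks and at least 8 fewer C/EBPβ peaks in differentiated cells. These thresholds were set after the counts of both genes were seen. The other 4 were 4930558K02Rik, Rnd3, Tns3 and Tcf7l2. Tcf7l2, which encodes a DNA-binding partner of β-catenin, had 4 RUNX2 peaks in differentiated and 10 in undifferentiated cells, and 10 C/EBPβ peaks in differentiated and 19 in undifferentiated cells. At least 6 fewer RUNX2 peaks were found at 0.139% of genes, and at least 8 fewer C/EBPβ peaks at 0.0671%. The places of Ankrd1 and Amotl2 depended on how peaks were counted. With peaks lying close together merged, Ankrd1 had 1 RUNX2 peak in differentiated and 6 in undifferentiated cells. Amotl2 then had 3 C/EBPβ peaks in differentiated and 9 in undifferentiated cells, so neither gene met both thresholds. Within 50 kb of a TSS Ankrd1 had 0 RUNX2 peaks in differentiated and 3 in undifferentiated cells, while Amotl2 met both. The other 4 genes were not recounted.

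**Figure D2:**
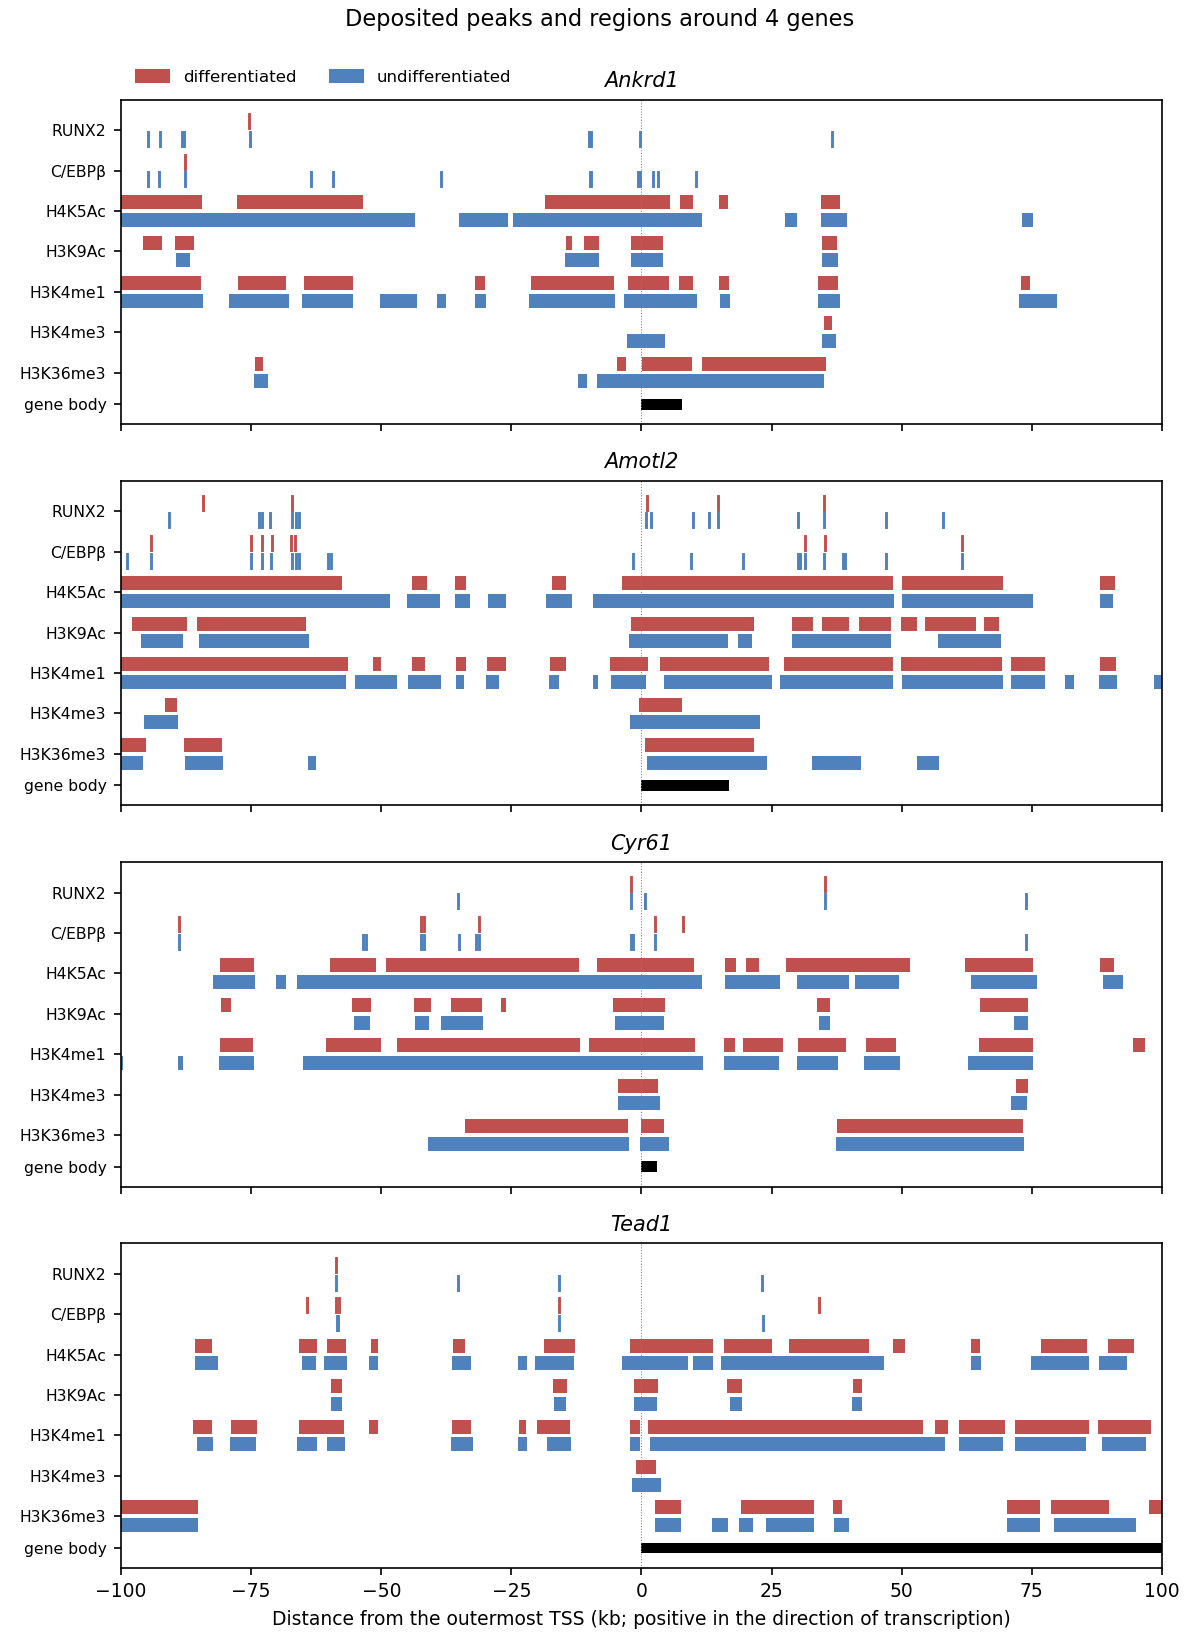
Deposited peaks and regions within 100 kb of the outermost TSS of Ankrd1, Amotl2, Cyr61 and Tead1, including those nearest to other genes, with differentiated cells (red) above undifferentiated cells (blue) for each antibody. Ticks mark factor peaks, bars mark the extent of histone mark regions and the black bar is the gene body; around the Ankrd1 TSS the factor peaks and the H3K4me3 region are listed in undifferentiated cells only, while H3K9Ac, H4K5Ac and H3K4me1 regions are listed in both.

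Most sites where peaks were no longer listed still lay in acetylated and H3K4me1 regions, as they did in the whole lists, and a minority lay in H3K4me3 regions. All 18 RUNX2 peaks listed in undifferentiated cells only lay in H4K5Ac regions in both states. H3K9Ac covered 16 of them in differentiated cells and 14 in undifferentiated cells, and H3K4me1 covered 17 in each. H3K4me3 covered 2 in differentiated cells and 5 in undifferentiated cells. The 30 C/EBPβ peaks listed in undifferentiated cells only had H4K5Ac at 27 in differentiated and 29 in undifferentiated cells, H3K9Ac at 22 in differentiated and 20 in undifferentiated cells, H3K4me1 at 27 in differentiated and 30 in undifferentiated cells, and H3K4me3 at 2 in differentiated and 9 in undifferentiated cells. As background, the whole lists held 8058 RUNX2 and 8890 C/EBPβ peaks listed in undifferentiated cells only. Of these RUNX2 peaks, 92.3% lay in H4K5Ac regions in differentiated and 96.6% in undifferentiated cells, 73.6% in H3K9Ac regions in differentiated and 54.7% in undifferentiated cells, and 97.7% in H3K4me1 regions in differentiated and 95.7% in undifferentiated cells. H3K4me3 covered 26.6% of them in differentiated and 26.9% in undifferentiated cells. Of these C/EBPβ peaks, 83.4% lay in H4K5Ac regions in differentiated and 89.4% in undifferentiated cells, 58.3% in H3K9Ac regions in differentiated and 39.5% in undifferentiated cells, and 90.9% in H3K4me1 regions in differentiated and 92.1% in undifferentiated cells. H3K4me3 covered 12.5% of them in differentiated and 13.8% in undifferentiated cells. The overlap of the factors was read from both sides. In differentiated cells 1 of 6 RUNX2 peaks overlapped a C/EBPβ peak, against 22.2% of the whole list, and 1 of 17 C/EBPβ peaks overlapped a RUNX2 peak, against 12.9%. In undifferentiated cells 13 of 24 RUNX2 peaks, or 54.2% (32.8 to 74.4%), overlapped a C/EBPβ peak, against 31.1% of the whole list. From the other side it was 13 of 42 C/EBPβ peaks, or 31.0% (17.6 to 47.1%), against 25.3%, which lies within the interval. Both intervals cover counting error only, and neighbouring peaks share a locus. Ankrd1 held 6 of the 13 sites where both factors were found.

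At the promoters, taken as 1 kb around any TSS, H4K5Ac, H3K9Ac and H3K4me1 were present at all 10 genes in both states. Over all genes H4K5Ac was at 54.2% of promoters in differentiated and 55.4% in undifferentiated cells, H3K9Ac at 52.4% in differentiated and 49.1% in undifferentiated cells, and H3K4me1 at 58.8% in differentiated and 57.1% in undifferentiated cells. H3K4me3 was at 7 of the 10 in differentiated cells and 9 in undifferentiated cells, against 40.0% of all genes in differentiated and 34.9% in undifferentiated cells. It was listed in undifferentiated cells only at Tead2, Tead4 and Ankrd1, a change found at 1.46% of all genes, and in differentiated cells only at Ctgf, a change found at 6.54%. These regions had low scores, as deposited by the authors, within their lists. The undifferentiated score exceeded that of 5.01% of regions at Tead4, 12.9% at Tead2 and 27.0% at Ankrd1, and the differentiated score at Ctgf exceeded that of 2.31%. When each list was cut to the 50% of regions with the highest scores, H3K4me3 was at 6 promoters in differentiated cells and 4 in undifferentiated cells. The order of the counts thus turned round. Tead2, Tead4, Ankrd1 and Ctgf then had the mark in neither state, so none of the differences named above was left. Yap1 and Tead3 left the undifferentiated count and had it in differentiated cells only. RUNX2 was at 1 promoter, that of Amotl2, in differentiated cells and at 3, those of Cyr61, Ankrd1 and Amotl2, in undifferentiated cells, against 5.61% of all genes in differentiated and 15.0% in undifferentiated cells. C/EBPβ was at the promoter of Wwtr1 in both states and at that of Ankrd1 in undifferentiated cells, against 6.54% of all genes in differentiated and 10.7% in undifferentiated cells.

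The H3K4me3 region of Amotl2 was 8.23 kb wide in differentiated cells and 25.0 kb wide in undifferentiated cells. In undifferentiated cells it ran over the whole gene, and the region's score exceeded those of 99.8% of regions in differentiated cells and 99.4% in undifferentiated cells. The ratio of widths was 0.329, and 5.00% of the 7476 genes with the mark in both states had a lower one. The median ratio over those genes was 0.908, and 60.8% were narrower in differentiated cells. At Tead1 the region was 3.74 kb wide in differentiated and 5.53 kb in undifferentiated cells, at Wwtr1 4.58 kb in differentiated and 5.80 kb in undifferentiated cells, and at Cyr61 7.57 kb in differentiated and 7.96 kb in undifferentiated cells. Yap1 and Tead3 went the other way, with 3.87 kb in differentiated and 2.37 kb in undifferentiated cells at Yap1, and 3.06 kb in differentiated and 2.18 kb in undifferentiated cells at Tead3. The Yap1 ratio of 1.63 exceeded that of 95.2% of genes. The 3 regions listed in undifferentiated cells only were 7.48 kb wide at Ankrd1, 6.37 kb at Tead4 and 1.28 kb at Tead2, and the Ctgf region of differentiated cells was 1.26 kb wide.

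**Figure D3:**
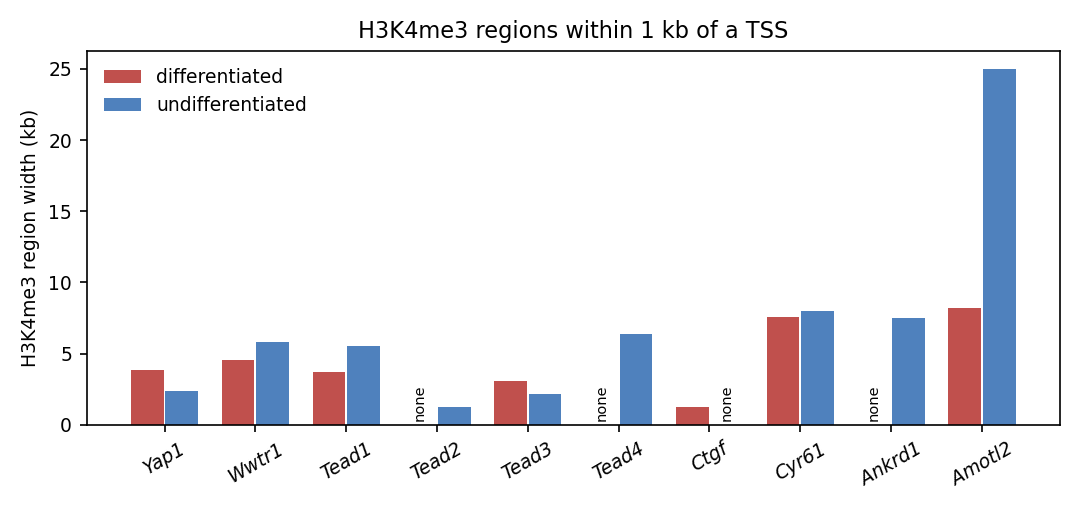
Width in kb of the H3K4me3 region within 1 kb of a TSS at each gene in differentiated (red, left) and undifferentiated (blue, right) cells; "none" marks a gene without such a region in that list. The Amotl2 region of 25.0 kb in undifferentiated cells is the widest of the set and is 8.23 kb in differentiated cells.

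Regions of the marks were also counted by nearest TSS. H4K5Ac gave the 10 genes 42 regions in differentiated and 43 in undifferentiated cells, which covered 384 kb in differentiated and 614 kb in undifferentiated cells. For H3K9Ac there were 36 regions over 162 kb in differentiated and 24 over 136 kb in undifferentiated cells, and for H3K4me1 56 over 518 kb in differentiated and 53 over 607 kb in undifferentiated cells. For H3K4me3 there were 7 over 32.3 kb in differentiated and 9 over 64.0 kb in undifferentiated cells, and for H3K36me3 23 over 323 kb in differentiated and 26 over 397 kb in undifferentiated cells. The number of H4K5Ac regions hardly differed while their summed length did. At Cyr61 the H4K5Ac region over the promoter was 18.7 kb wide in differentiated cells and 78.0 kb wide in undifferentiated cells, and the H3K4me1 region 20.3 kb in differentiated and 77.0 kb in undifferentiated cells. The cover of the 50 kb on either side of its TSS differed less, at 83.0% in differentiated and 90.7% in undifferentiated cells for H4K5Ac, and 80.1% in differentiated and 87.2% in undifferentiated cells for H3K4me1.

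Cover was therefore compared over that fixed window, 50 kb to either side of the outermost TSS. H4K5Ac cover was lower in differentiated cells at 8 of the 10 genes and higher at 2, against 61.0% and 15.9% of all genes. The remaining genes of the annotation had equal cover in both states. The median difference was -9.84 percentage points against -1.28 over all genes, from unlike levels of cover. Median cover of the 10 genes was 34.7% in differentiated and 44.2% in undifferentiated cells. Over all genes it was 9.51% in differentiated and 13.1% in undifferentiated cells. Ankrd1 had 31.7% cover in differentiated cells and 59.5% in undifferentiated cells, and 1.14% of genes had a lower difference than its -27.8 points. Ctgf had 19.7% in differentiated and 38.1% in undifferentiated cells, Amotl2 59.9% in differentiated and 77.2% in undifferentiated cells, and Wwtr1 31.1% in differentiated and 47.1% in undifferentiated cells. Tead3 was higher, at 43.2% in differentiated and 33.6% in undifferentiated cells. The nearest other TSS to Tead3 was 4.26 kb away, so its window takes in regions nearest to other genes. By nearest TSS, its H4K5Ac regions covered 12.8 kb in differentiated and 12.6 kb in undifferentiated cells. All 4 target genes were among the 8 with lower cover.

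H3K9Ac cover was higher in differentiated cells at 8 of the 10 genes, against 67.2% of all genes. It was lower at Ankrd1 and Amotl2, where 5.01% of all genes were lower. The remaining genes of the annotation had equal cover in both states, so these shares are not of genes that differed. Ankrd1 had 13.2% in differentiated and 15.9% in undifferentiated cells, and Amotl2 39.0% in differentiated and 40.8% in undifferentiated cells. The largest positive differences among the 10 were at Tead3, with 33.4% in differentiated and 20.4% in undifferentiated cells, and Tead4, with 13.1% in differentiated and 4.65% in undifferentiated cells. By nearest TSS, which leaves out regions nearest to other genes, the H3K9Ac regions of Tead3 covered 12.0 kb in differentiated and 9.56 kb in undifferentiated cells. Counted so, Ankrd1 went the other way from its window, with 17.5 kb in differentiated and 15.5 kb in undifferentiated cells. The Ankrd1 window takes in the TSS of Rpp30, 36.1 kb away. Amotl2 stayed lower, with 51.7 kb in differentiated and 52.8 kb in undifferentiated cells. H3K4me1 cover was lower in differentiated cells at 6 genes and higher at 4, against 42.3% and 37.9% of all genes. The 4 target genes were again among the 6, from -14.4 points at Ctgf and -12.9 at Ankrd1 to -7.07 at Cyr61 and -5.13 at Amotl2. H3K4me3 cover was lower at 7 genes and higher at 3, against 31.5% and 28.6% of all genes. The lowest differences were -16.8 points at Amotl2, -8.47 at Ankrd1 and -6.37 at Tead4.

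**Figure D4:**
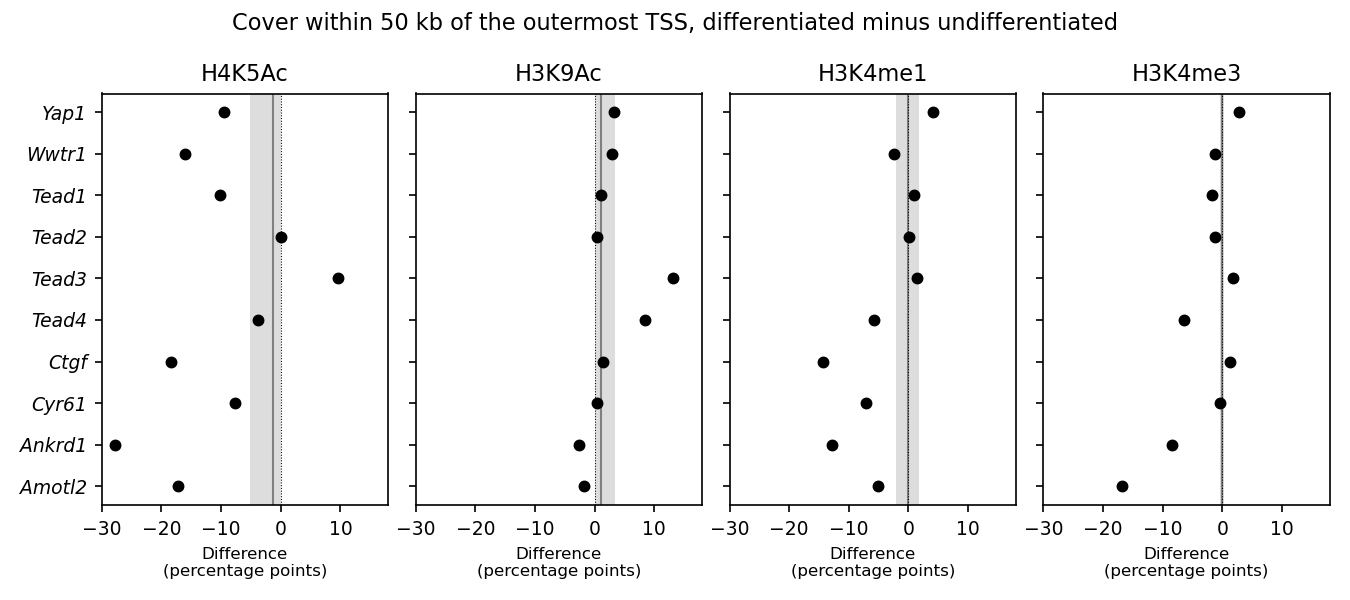
Difference in cover, differentiated minus undifferentiated, in percentage points of the 100 kb centred on the outermost TSS, for each gene and mark (dots); the grey line is the median and the grey band the middle 50% of all 22367 genes. The H4K5Ac dots of the 4 target genes lie between -27.8 and -7.74, left of the band. Those of Wwtr1, Tead1 and Yap1 lie left of the band too. The H3K9Ac dots of Ankrd1 and Amotl2 are the only ones of that mark below 0.

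H3K36me3 covered the bodies of the 10 genes in both states. At least 50% of the body was covered at 9 genes in differentiated cells and 10 in undifferentiated cells, against 40.8% of all genes in differentiated and 40.7% in undifferentiated cells. Cover at Yap1 was 98.3% in differentiated and 97.7% in undifferentiated cells, and at Wwtr1 92.8% in differentiated and 92.1% in undifferentiated cells. Tead2 had 94.9% in differentiated and 94.0% in undifferentiated cells, and Tead3 73.0% in differentiated and 66.0% in undifferentiated cells. The main region over Tead3 also ran over 11.8 kb of Fance in differentiated and 11.3 kb in undifferentiated cells, and over 2.6 kb of Rpl10a in each. The region over Tead2 ran over 1.5 kb of Cd37 in differentiated and 0.5 kb in undifferentiated cells. The part of these neighbours in the values was not tested. The 2 largest differences were at TEAD genes, both lower in differentiated cells. Tead1 had 57.5% in differentiated and 70.8% in undifferentiated cells, and Tead4 40.2% in differentiated and 56.1% in undifferentiated cells. Cover was lower by 10 points or more at 4.73% of all genes, and higher by as much at 5.13% and at none of the 10. Among the target genes Ctgf had 67.4% in differentiated and 73.2% in undifferentiated cells, Cyr61 100% in both, Ankrd1 99.0% in differentiated and 100% in undifferentiated cells, and Amotl2 95.5% in differentiated and 93.5% in undifferentiated cells.

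At Ankrd1, then, H3K36me3 cover differed by about 1 point between the states, while its promoter H3K4me3 region and the factor peaks around the TSS were listed in undifferentiated cells only. The region that covers it was 9.64 kb wide in differentiated cells. In undifferentiated cells it was 43.7 kb wide and ran on over Rpp30, the neighbouring gene. The part of Rpp30 in the Ankrd1 value was not tested. At Tead4 the promoter H3K4me3 region and H3K36me3 cover were both less in differentiated cells, while its H3K9Ac cover was greater. Several of these values depended on regions with low scores. The H3K4me3 regions at the Ankrd1 and Tead4 promoters were not among the 50% of H3K4me3 regions with the highest scores. Among the 50% of H3K36me3 regions with the highest scores, Tead1 had 31.3% cover in differentiated and 32.2% in undifferentiated cells, so its gap shrank to about 1 point. Tead3 had 65.8% in differentiated and 66.0% in undifferentiated cells, and its small difference changed sign. Tead4 had 0% in differentiated cells and its full 56.1% in undifferentiated cells, and Ctgf had 0% in both.

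**Figure D5:**
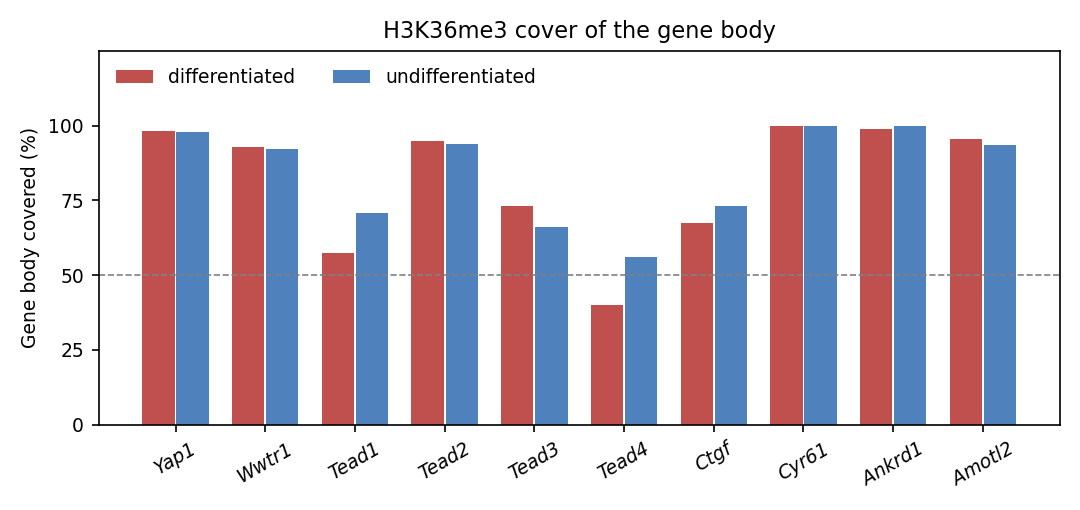
Percent of each gene body covered by H3K36me3 regions in differentiated (red, left) and undifferentiated (blue, right) cells; the dashed line is the 50% threshold. The only gene under the line is Tead4 in differentiated cells, at 40.2%, and Tead1 and Tead4 show the widest gaps between the states.

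The TEAD motif GGAATG, searched on both strands of the 201 bp, was found in 3 of 6 RUNX2 peaks in differentiated cells and 9 of 24 in undifferentiated cells, or 37.5% (18.8 to 59.4%). The whole lists held it in 22.2% of peaks in differentiated and 22.3% in undifferentiated cells. In C/EBPβ peaks it was found in 5 of 17 in differentiated cells, or 29.4% (10.3 to 56.0%), against 17.8% of the whole list. In undifferentiated cells it was found in 12 of 42, or 28.6% (15.7 to 44.6%), against 18.5%. The share of the whole list lay within the interval each time. Within 50 bp of the peak centre 2 of 6 differentiated RUNX2 peaks held it, against 13.5% of the list, and 1 of 24 undifferentiated RUNX2 peaks, against 13.1%. For C/EBPβ it was 1 of 17 in differentiated cells, against 9.62% of the list, and 3 of 42 in undifferentiated cells, against 10.0%. The RUNX motif TGTGGT was in 4 of 6 RUNX2 peaks in differentiated and 14 of 24 in undifferentiated cells, against 59.6% of the differentiated and 51.5% of the undifferentiated list. The C/EBP motif was in 7 of 17 C/EBPβ peaks in differentiated and 13 of 42 in undifferentiated cells, against 44.8% of the differentiated and 41.1% of the undifferentiated list.

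The TEAD motif was also searched in promoters, apart from any peak. RefSeq promoters (GRCm38.p6) were found for 7 of the 10 genes: Yap1, Wwtr1, Tead2, Tead3, Cyr61, Ankrd1 and Amotl2. With the first promoter listed for each gene, GGAATG stood in the 250 bases before the start in 6 of these 7, all but Tead2, against 12.6% of 27025 genes counted in the same way. Some genes have several promoters in the table, and over every promoter it was 8 of 10, against 12.6% of 32851. These 10 promoters are not independent, because those of Wwtr1 overlap and hold the same match, and Tead3 gives 3 of them. Ankrd1 had 2 matches in its promoter and Tead3 had 2 in 1 of its 3, where 1.02% of all the promoters had 2 or more. The RUNX2 peak at the Ankrd1 promoter, shown above, shares an 81-base stretch with this promoter, and that stretch holds 1 of the 2 matches. The Ankrd1 and Cyr61 promoters are shown because these target genes had RUNX2 at the promoter in undifferentiated cells but not in differentiated cells. The Cyr61 RUNX2 peak lay 0.767 kb into the gene, outside the bases shown. The motif is in capitals, and each promoter is on the strand of the gene and ends at the base before the start.
Ankrd1 promoter, RefSeq: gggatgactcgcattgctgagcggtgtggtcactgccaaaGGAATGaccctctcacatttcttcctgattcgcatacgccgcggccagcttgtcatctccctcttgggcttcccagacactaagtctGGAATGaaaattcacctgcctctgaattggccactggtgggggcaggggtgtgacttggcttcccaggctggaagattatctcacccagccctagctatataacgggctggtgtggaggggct
Cyr61 promoter, RefSeq: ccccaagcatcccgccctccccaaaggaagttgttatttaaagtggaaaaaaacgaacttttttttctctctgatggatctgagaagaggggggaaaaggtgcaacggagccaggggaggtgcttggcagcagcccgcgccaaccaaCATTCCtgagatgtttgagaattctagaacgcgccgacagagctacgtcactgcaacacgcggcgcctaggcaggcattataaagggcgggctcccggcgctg

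The rest of the pathway was read from 3 lists of known genes. The 18 Hippo kinases and upstream regulators had 20 RUNX2 peaks in differentiated cells and 31 in undifferentiated cells, with fewer at 11 genes and more at 3. Of the 15 with an undifferentiated peak 73.3% had fewer, close to the 72.5% of all such genes, and the median difference among them was -1 peak, as over all such genes. Lats2, a kinase that phosphorylates YAP, had 1 RUNX2 peak in differentiated and 3 in undifferentiated cells, as did Nf2, which encodes the scaffold merlin. Frmd6 had 0 in differentiated and 3 in undifferentiated cells, and Amotl1, which encodes a relative of Amotl2, 2 in differentiated and 3 in undifferentiated cells. More peaks in differentiated cells were found at Stk4, an upstream kinase, with 4 in differentiated and 2 in undifferentiated cells, at Fat4, a protocadherin, with 2 in differentiated and 1 in undifferentiated cells, and at Dchs1, its ligand, with 1 in differentiated and 0 in undifferentiated cells. Ptpn14, the gene of a phosphatase that binds YAP, had 4 in each state, of which 2 overlapped between the states. C/EBPβ peaks at these genes numbered 26 in differentiated and 23 in undifferentiated cells, fewer at 4 genes and more at 5. Of the 12 with an undifferentiated C/EBPβ peak 33.3% had fewer, against 58.0% of all such genes. H3K4me3 was at 17 of the 18 promoters in each state, against 40.0% of all genes in differentiated and 34.9% in undifferentiated cells.

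The 4 Vestigial-like genes encode cofactors that bind TEAD proteins in place of YAP. They had 6 RUNX2 peaks in differentiated and 13 in undifferentiated cells, and 15 C/EBPβ peaks in differentiated and 27 in undifferentiated cells. Each of the 3 genes with an undifferentiated peak, for either factor, had fewer. Among all such genes 72.5% had fewer for RUNX2 and 58.0% for C/EBPβ, and 3 genes are too few to set against these shares. Vgll4 had 4 RUNX2 peaks in differentiated and 9 in undifferentiated cells, and 9 C/EBPβ peaks in differentiated and 17 in undifferentiated cells. Vgll3 had 2 RUNX2 peaks in differentiated and 3 in undifferentiated cells, and 6 C/EBPβ peaks in differentiated and 9 in undifferentiated cells. Vgll1 and Vgll2 had none of the 4 promoter marks in either state. Vgll4 had more factor peaks in undifferentiated cells than any TEAD gene.

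The 16 other YAP and TAZ target genes had 23 RUNX2 peaks in differentiated and 34 in undifferentiated cells, fewer at 8 genes and more at 1. Of the 11 with an undifferentiated peak 72.7% had fewer, close to the 72.5% of all such genes. They had 32 C/EBPβ peaks in differentiated and 57 in undifferentiated cells, fewer at 11 and more at 1, and of the 15 with an undifferentiated C/EBPβ peak 73.3% had fewer, against 58.0% of all such genes. Myof, which encodes a membrane repair protein, had 2 RUNX2 peaks in differentiated and 6 in undifferentiated cells, and Tgfb2, a growth factor gene, 3 in differentiated and 5 in undifferentiated cells. Asap1 had 4 in differentiated and 6 in undifferentiated cells. F3, the gene of tissue factor, and Nt5e, that of an ectonucleotidase, each had 1 in differentiated and 3 in undifferentiated cells. Ccdc80 had 2 in differentiated and 3 in undifferentiated cells, and Rbms3 1 in differentiated and 2 in undifferentiated cells. Arhgef17 had 3 in each state. Gadd45a, a stress response gene, stood apart in direction, with 4 RUNX2 peaks in differentiated cells, none of which overlapped an undifferentiated peak, and 0 in undifferentiated cells. Igfbp3 had none of the 4 promoter marks in either state. H3K4me3 was at 11 of the 16 promoters in differentiated cells and 10 in undifferentiated cells, against 40.0% of all genes in differentiated and 34.9% in undifferentiated cells.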

How the data were processed

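Chromatin from MC3T3-E1 cells was sequenced after ChIP in 16 samples, and 14 had peak lists; the 2 input samples entered no comparison. Per the submitters' processing notes, reads were aligned to mm9 with Bowtie and peaks called with HOMER; their versions and thresholds and the depth were not stated. The deposited lists are merged from replicates, per the peak names in the files. The score column is 0 for every RUNX2 and C/EBPβ peak; for the marks it is the authors' deposited score, whose scale is not given, and it was used only to rank regions within a list. The differentiated H3K36me3 sample was placed by its title, because another of its labels was unclear. The label H4K5Ac was taken from the antibody field; a protocol names H3K5Ac.

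Coordinates are mm9, 1-based. Centres were assigned to the nearest TSS of 22367 protein-coding genes (GENCODE vM1) within 100 kb. Overlap needed 1 bp. H3K36me3 was the percent of the gene body covered. Motifs were searched on both strands of the 201 bp, and promoter sequences came from RefSeq (GRCm38.p6). Python 3.11.15, numpy 2.4.6, scipy 1.17.1 and pysam 0.24.0 were used, and the functions were tested on simulated data. With 1 merged list per antibody and state no test was run; percentages of all genes serve as background, and exact Clopper-Pearson intervals (95%) cover counting error only. The text names all 10 genes, list genes with 3 or more undifferentiated RUNX2 peaks, a gained RUNX2 peak or no promoter mark in either state, and any gene that a sentence says was chosen afterwards. The members, lists and rules were chosen with earlier results of these data known.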

Additional observations from a re-analysis of the deposited data

How the results depend on the processing

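Of 78 alternative values for 22 results, 68 stayed within 1.5 times the reported count and 10 did not. The peak counts depended on how peaks were assigned. Within 20 kb of a TSS there were 15 undifferentiated RUNX2 peaks in place of 24, 7 differentiated C/EBPβ peaks in place of 17 and 21 undifferentiated C/EBPβ peaks in place of 42. Over gene bodies and 10 kb around them there were 11 undifferentiated RUNX2 and 21 undifferentiated C/EBPβ peaks. With the TSSs of all annotated genes, 3 members had fewer C/EBPβ peaks in differentiated cells in place of 5. Among the 50% of H3K4me3 regions with the highest scores, 4 members had the mark in undifferentiated cells in place of 9. Within 50 bp of the centre the TEAD motif was in 1 undifferentiated RUNX2 peak in place of 9, in 1 differentiated C/EBPβ peak in place of 5 and in 3 undifferentiated C/EBPβ peaks in place of 12. No paired analysis was possible because each antibody and state had 1 merged list. The lists give no depth, so a peak below the authors' threshold in 1 state cannot be told apart from an absent peak.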

Other observations

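Some of the other target genes differed in H3K36me3 cover by more than any of the 10 genes. Nt5e, which encodes an ectonucleotidase, had 61.5% of its body covered in differentiated cells and 17.5% in undifferentiated cells, with 1 RUNX2 peak in differentiated and 3 in undifferentiated cells. Foxf2, a forkhead factor gene, had 49.6% in differentiated and 85.8% in undifferentiated cells, with 1 RUNX2 peak in each state. Crim1 had 59.1% in differentiated and 84.8% in undifferentiated cells, with 0 RUNX2 peaks in both. These genes were picked after their values were seen.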
